A study of Mus musculus with 8 samples.

Results

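The genes described here are 7 of the 35896 genes in the count table, chosen by symbol as genes of Schwann cells, of myelin and of sympathetic nerves: Ngfr, Mbp, Sox10, S100b, Pmp22, Th and Dbh. The choice was made with earlier results of these counts known, and the level of Ngfr 2 weeks after AngII was part of it. Values of the 7 genes that involve that group are therefore a description, and calls in fits with it are counted with nothing read from them. RNA came from whole aortas of male wild-type C57BL6 mice, 11 weeks old at the start of the infusion, and each library held a piece of the aorta of 2 mice. The 4 groups, written CTRL, AngII, AngII+2W and AngII+3W, had 2 libraries each. The AngII group received 2.8 mg/kg/d of AngII for 2 weeks and was sacrificed at the end of the infusion, and the AngII+2W and AngII+3W groups received the same infusion and were sacrificed 2 and 3 weeks after its end. Untreated littermates gave the CTRL libraries, for which the labels state no time point.

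The outer layer of an artery carries a plexus of sympathetic axons wrapped by Schwann cells, and larger nerve bundles with myelinated fibers run in the surrounding fat. Sympathetic axons release noradrenaline onto smooth muscle, which constricts the vessel. Their cell bodies lie outside the vessel wall, in ganglia along the spine and in front of the aorta. Noradrenaline is made from tyrosine by tyrosine hydroxylase (Th, the rate-limiting step), aromatic amino acid decarboxylase (Ddc) and dopamine beta-hydroxylase (Dbh). Ngfr encodes the neurotrophin receptor p75NTR, which is found on sympathetic neurons and on immature or non-myelinating Schwann cells. Sox10 is the transcription factor that specifies and maintains Schwann cells. Mbp and Pmp22 encode proteins of myelin, and S100b encodes a calcium-binding protein of Schwann cells that adipocytes also make. In whole tissue, fewer cells of a type and less RNA per cell cannot be told apart.

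The region just before the start of transcription is shown for Th and Ngfr, in windows free of annotated exons. These 2 were picked by name from the 3 of the 7 genes that were highest in both AngII+2W libraries. No window is shown for the third, Dbh. Both genes lie on the reverse strand of GRCm38.p6, and the windows of 213 bases, from RefSeq, run from 250 to 38 bases before the RefSeq start at chr7:142900033-142900245 for Th and at chr11:95587736-95587948 for Ngfr. They are written 5′ to 3′ along the gene. Capitals mark matches, on either strand, to the letters TGACGTCA (the cAMP response element) and GGGCGG (the GC box).
Th: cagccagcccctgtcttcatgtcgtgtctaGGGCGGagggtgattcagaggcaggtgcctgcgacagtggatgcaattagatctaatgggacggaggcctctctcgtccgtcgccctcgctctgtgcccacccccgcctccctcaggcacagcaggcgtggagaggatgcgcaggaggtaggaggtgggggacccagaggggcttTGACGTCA
Ngfr: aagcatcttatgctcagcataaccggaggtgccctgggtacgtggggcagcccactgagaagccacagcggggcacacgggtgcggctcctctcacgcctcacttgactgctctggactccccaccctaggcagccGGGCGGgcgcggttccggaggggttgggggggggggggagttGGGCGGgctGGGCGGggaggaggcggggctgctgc
The cAMP response element stood 45 to 38 bases before the start of Th, the only such match in the pair, and these letters were present in 1.07% of the 32851 windows of the same length searched. The GC box was found once in Th, 220 to 215 bases before the start, and in Ngfr at 114 to 109, 72 to 67 and 63 to 58 bases, and 27.4% of all windows hold it. The letters TATAAA were in neither window and in 9.67% of all windows. All windows end 38 bases before the start, and the bases nearer to it were not searched. Whether either gene has these letters there is therefore not known. The GC content was 63.8% in the Th window and 70.9% in the Ngfr window, against a median of 51.6% over all windows. A match of letters is a description of the sequence, and binding was not measured.

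The libraries held between 18130441 and 21498200 counts, and 17182 genes passed the filter on low counts. All 7 genes passed it, but Th and Dbh passed only through the AngII+2W libraries. Levels are given as CPM, the counts of a gene per 1000000 counts on normalized library sizes, and 3 counts, the floor of detection used here, correspond to between 0.140 and 0.162 CPM. The false discovery rate (FDR) is the Benjamini-Hochberg adjusted p of edgeR's quasi-likelihood test over all 17182 genes, with a threshold of 0.05. Replicates are separate pools of mice, and with 2 per group the spread between them rests on few values. The table holds no gene lengths, so levels are compared between groups and not between genes.

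The first and last enzymes of noradrenaline synthesis, Th and Dbh, had at most 11 counts in every group but AngII+2W. Th (ENSMUSG00000000214, chromosome 7, 142892752 to 142931128, reverse strand) had counts of 3 and 7 in CTRL, 5 and 7 with AngII, 43 and 135 at AngII+2W and 1 and 4 at AngII+3W. Both AngII+2W libraries stood above the other 6. In CPM, Th was at 2.01 and 7.25 in AngII+2W and between 0.0538 and 0.332 elsewhere. Dbh (ENSMUSG00000000889, chromosome 2, 27165233 to 27183200, forward strand), the enzyme that turns dopamine into noradrenaline, had 5 and 5 counts in CTRL, none in either AngII library, 114 and 315 at AngII+2W and 11 and 7 at AngII+3W. Its level was 5.32 and 16.9 CPM in AngII+2W and between 0 and 0.591 CPM in the other 6 libraries.

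The summed Th count was 178 in AngII+2W and 10 in CTRL, a ratio of 18.6 after scaling for depth (95% interval 9.86 to 39.4, counting error only). For Dbh the summed counts were 429 and 10, a ratio of 44.8 (24.1 to 94.0). Against the AngII libraries, which had no Dbh count, Dbh in AngII+2W was at least 73.1-fold higher, taking 3 counts per library as the floor. These sizes follow from how the genes were chosen in part and are not tests. Of the 7 genes, 0 passed the FDR in AngII+2W against CTRL, where 0 of 17182 genes (0%) passed, 1838 genes had an unadjusted p below 0.05, and DESeq2 called 373 genes. In AngII+2W against AngII, 1 of 7 (Dbh) passed beside 0.163% of all genes, and in AngII+3W against AngII+2W, 0 of 7 passed beside 0% of all genes, where 1518 genes had an unadjusted p below 0.05 and DESeq2 called 221 genes. Nothing is read from these 3 counts.

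The comparisons without AngII+2W gave no call for either enzyme. Dbh had 10 counts over the CTRL libraries and 0 over the AngII libraries, at least 1.57-fold lower on the same floor, and did not pass the test (FDR 0.194). DESeq2 and edgeR's likelihood ratio test put the same difference past the threshold (adjusted p 0.0438 and 0.0161). Dbh at AngII+3W was at least 3.18-fold higher than with AngII (18 counts against 0, FDR 0.137). The Dbh ratio of AngII+3W to CTRL was 2.02 (0.884 to 4.90, 18 counts against 10, FDR 0.677). Th had 12 counts in AngII against 10 in CTRL, a ratio of 1.27 (0.501 to 3.27, FDR 0.889), and 5 in AngII+3W against 10 in CTRL, a ratio of 0.561 (0.151 to 1.80, FDR 0.806). The intervals cover counting error only and not the spread between pools of mice. Changes of either gene within them could have been missed at this depth.

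**Figure D1:**
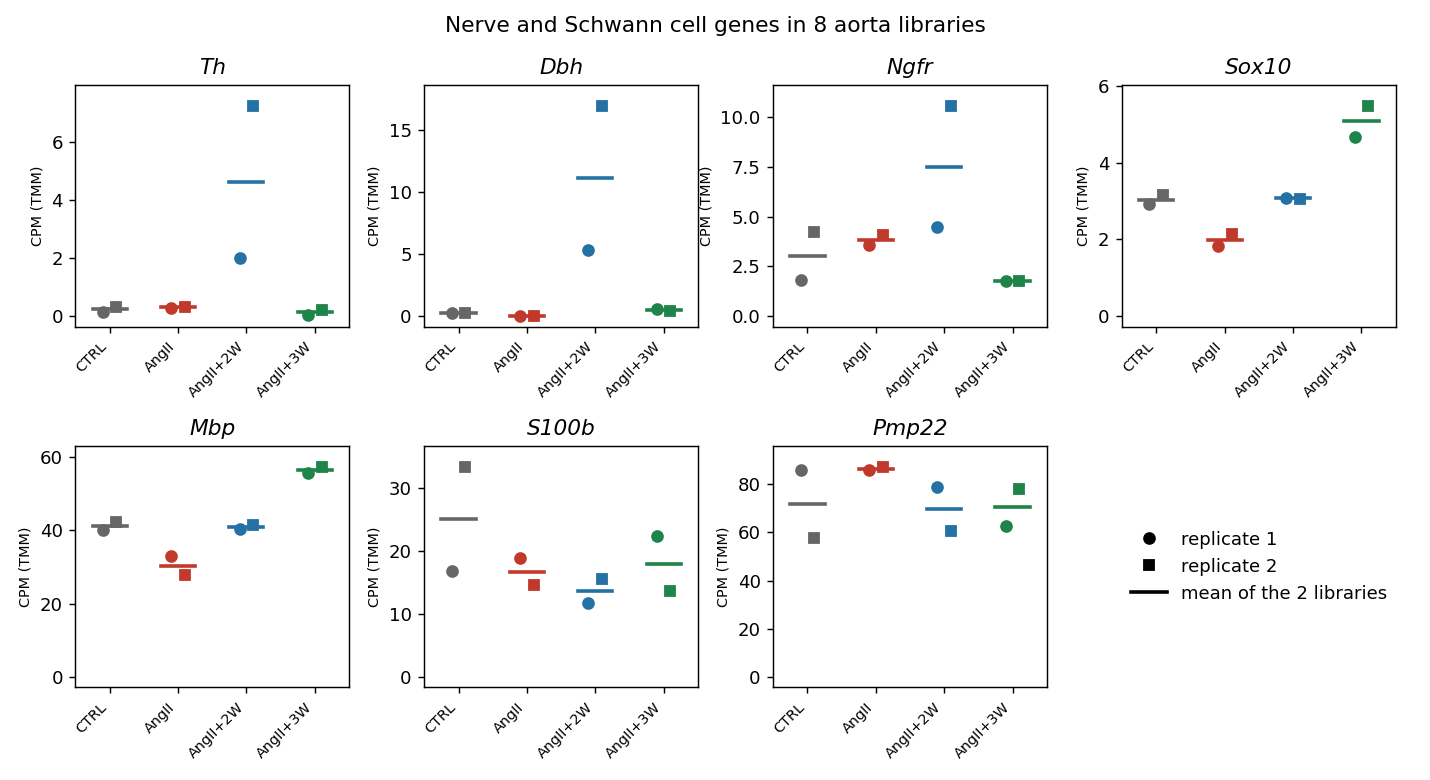
CPM of the 7 genes (vertical axes, linear and each with 0 shown) in the 8 libraries by group (horizontal axes). Circles are replicate 1, squares replicate 2, and lines the mean of the 2 libraries. Th, Dbh and Ngfr are highest in the 2 AngII+2W libraries, with replicate 2 above replicate 1, whereas Sox10 and Mbp are lowest in AngII and highest in AngII+3W.

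Ngfr (ENSMUSG00000000120, chromosome 11, 95568818 to 95587735, reverse strand), the p75 receptor, was also highest in AngII+2W, by the values that chose it. Its counts were 37 and 90 in CTRL, 66 and 86 with AngII, 96 and 197 at AngII+2W and 33 and 33 at AngII+3W. In CPM the levels were 1.80 and 4.23 in CTRL, 3.56 and 4.08 with AngII, 4.48 and 10.6 at AngII+2W and 1.77 and 1.77 at AngII+3W. The order of the means was AngII+3W (1.77), CTRL (3.02 ± 1.72, SD, n = 2), AngII (3.82 ± 0.362) and AngII+2W (7.53 ± 4.31). The AngII values lay within the CTRL values, and the gap from the upper CTRL library to the lower AngII+2W library was small beside the spread of either group. On the log2 scale its difference from CTRL was 1.31 at AngII+2W, 0.34 with AngII and -0.77 at AngII+3W. These values rest on single libraries: without CTRL replicate 2 they were 2.05, 1.07 and -0.04, without CTRL replicate 1 they were 0.83, -0.15 and -1.26, and without AngII+2W replicate 2 the first was 0.56. Ngfr was lowest of the 8 libraries in both AngII+3W libraries, as 1 of the 7 genes, beside 5.10% of all genes tested. The margin was small, with 33 and 33 counts against 37 in CTRL replicate 1.

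Th, Dbh and Ngfr shared a feature within the AngII+2W group. The CPM of replicate 2 was 3.61 times that of replicate 1 for Th, 3.18 times for Dbh and 2.36 times for Ngfr. The same ratio was 1.03 for Mbp, 0.99 for Sox10, 1.33 for S100b and 0.77 for Pmp22, and its median over all genes tested was 1.00. The count of Dbh per count of Th was 2.65 in replicate 1 and 2.33 in replicate 2, so that these 2 libraries differed more in how much of both transcripts they held than in the proportion between them. Across the 8 libraries, log2 CPM of Th and Dbh had a Pearson r of 0.82, Th and Ngfr of 0.89, and Dbh and Ngfr of 0.55, as a description of 4 groups of 2 libraries.

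Other genes of sympathetic neurons were looked at from a list of 18. The noradrenaline transporter Slc6a2, which takes noradrenaline back into the axon, had 408 and 891 counts in AngII+2W and between 51 and 113 in the other libraries. The vesicular transporter Slc18a2 had 65 and 126 counts against 13 to 34, and Ddc had 95 and 157 against 46 to 77. Neuropeptide Y (Npy), a cotransmitter of noradrenaline, had 12 and 44 counts against 0 or 1. Both AngII+2W libraries were the highest of the 8 for 10 of the 18 genes, beside 2.26% of all genes in the table and 3.71% of those tested. Since a gene of low count passes the filter through the group where it is high, the same was counted among the 13 genes that pass without AngII+2W, and it held for 5 of them, Ddc, Slc6a2 and Slc18a2 included, beside 3.40% of all such genes. None of the 17 tested genes passed the FDR in AngII+2W against CTRL (0 called, 7 with an unadjusted p below 0.05, smallest FDR 0.174), with 15 of 17 higher by sign and a median log2 fold change of 0.46 beside 0.00 over all genes.

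Genes of axons and synapses were high in the same libraries. Peripherin (Prph), an intermediate filament of peripheral neurons, had 57 and 112 counts in AngII+2W and 0 to 10 elsewhere. The neurofilament Nefl had 21 and 53 counts against 0 in CTRL and AngII and 4 and 11 in AngII+3W. Neuronal tubulin (Tubb3) had 65 and 179 counts against 4 to 37. Of the 18 genes on this list 12 were highest in both AngII+2W libraries, among them 5 of the 10 that pass the filter without AngII+2W, beside the same 2.26% and 3.40%. Over the 16 tested genes the median against CTRL was 2.62 on the log2 scale, with 14 of 16 higher by sign, 13 with an unadjusted p below 0.05 and 0 called. Of the tested genes, 6 on this list and 4 on the sympathetic list passed the filter only through AngII+2W and had to be higher there, so nothing is read from these medians and signs. The synaptic vesicle protein gene Syt1, one of these, had 109 and 283 counts in AngII+2W and 0 to 7 elsewhere. In AngII against CTRL, the microtubule-associated protein gene Map1b (-1.69 on the log2 scale, SE 0.272, FDR 0.0186) and the vesicle protein gene Vamp2 (-0.70, SE 0.104, FDR 0.0159), both also expressed outside neurons, fell, 2 of 16 beside 5.1% of all genes. Replicate 2 exceeded replicate 1 within AngII+2W for 15 of 16 genes, with a median ratio of 2.04, and for 15 of 17 sympathetic genes, with a median ratio of 1.63 (0.15 CPM added to each value in these medians). Among Schwann cell genes, Fabp7, a fatty acid binding protein of immature glia, had 21 and 71 counts in AngII+2W against 2 to 13 elsewhere, and was chosen after its values were seen.

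The adrenal medulla, whose chromaffin cells also express Th and Dbh, was represented by a list of 4 markers. Pnmt, which makes adrenaline, had 2 and 3 counts in AngII+2W and 13 and 11 in CTRL, and the chromaffin vesicular transporter Slc18a1 had 15 and 20 counts in AngII+2W and 18 to 32 elsewhere. The granin genes Chga and Chgb, which neurons express as well, had 26 and 36 counts against 7 to 26 and 20 and 27 counts against 1 to 13. The summed level of the 4 markers was 2.94 and 4.62 CPM in AngII+2W and 1.99 to 3.10 CPM in the other libraries. Cardiac muscle markers moved the other way: their summed level was 147 and 6.34 CPM in AngII+2W and 320 to 5261 CPM in the other libraries, with all 6 genes lower than in CTRL in both libraries. The high neuronal genes and the low cardiac genes were found in the same 2 libraries, and the part of chromaffin or cardiac tissue in the levels of Th, Dbh and Ngfr was not tested.

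**Figure D2:**
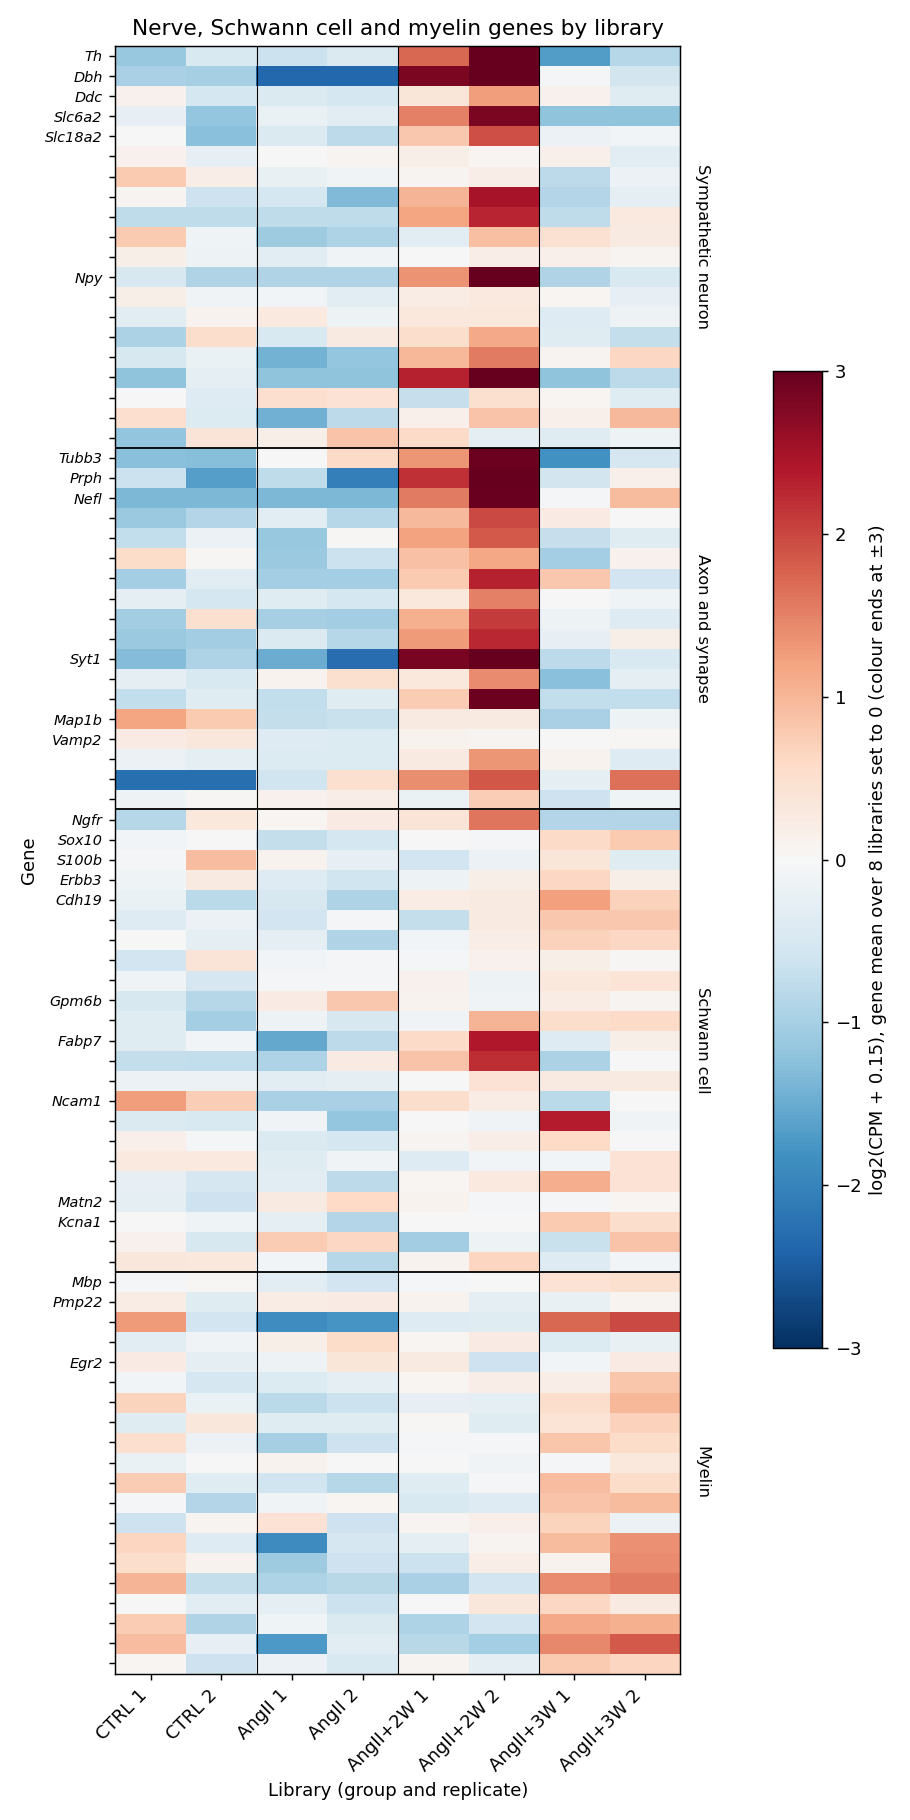
Level of the 7 genes and of all other genes on 4 lists (81 genes in rows, with the names of those described in the text) in the 8 libraries (columns), as log2(CPM + 0.15) with the mean of each gene set to 0. Red is above and blue below that mean. Most sympathetic and axonal genes are red in AngII+2W, more so in replicate 2, and most myelin genes are red in AngII+3W, many of them also in CTRL replicate 1.

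The Schwann cell regulator Sox10 and the myelin gene Mbp had another pattern, lowest in AngII and highest in AngII+3W. Sox10 (ENSMUSG00000033006, chromosome 15, 79154908 to 79165240, reverse strand) had counts of 60 and 67 in CTRL, 34 and 45 with AngII, 66 and 57 at AngII+2W and 87 and 102 at AngII+3W. In CPM this was 2.92 and 3.15, 1.84 and 2.13, 3.08 and 3.06, and 4.68 and 5.48, in the same order. The AngII libraries lay below and the AngII+3W libraries above all others, while the AngII+2W values lay within those of CTRL. Mbp (ENSMUSG00000041607, forward strand) had 40.0 and 42.2 CPM in CTRL, 33.0 and 27.7 with AngII, 40.3 and 41.4 at AngII+2W and 55.6 and 57.3 at AngII+3W. Its groups were ordered in the same way and did not overlap, again except for AngII+2W and CTRL.

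Both genes were higher in AngII+3W than in AngII. The log2 fold change was 0.90 for Mbp (SE 0.122, 1.86-fold, edgeR FDR 0.0251) and 1.35 for Sox10 (SE 0.227, 2.55-fold, edgeR FDR 0.0413). These were 2 of the 7 genes, beside 1.61% of all genes tested. Neither call held in every fit. The FDR of Mbp ranged from 3.1e-05 to 0.215 and that of Sox10 from 0.000502 to 0.227 over the alternatives, and in a fit of the AngII and AngII+3W libraries alone they were 0.129 and 0.169, with log2 fold changes of 0.90 and 1.35. Leaving out any 1 library ended the call of Sox10 (FDR 0.0586 to 0.227), and leaving out AngII replicate 1 or 2, AngII+2W replicate 1 or 2, or AngII+3W replicate 1 ended that of Mbp (FDR 0.0586 to 0.215). The direction was the same in each of these fits, which differed in how many genes of any kind they called. The fit of the AngII and AngII+3W libraries alone called 0 of 16579 genes. With the AngII+2W libraries left out, in a fit added after the data were seen, neither gene passed. There the log2 fold change of Mbp was 0.88 (edgeR FDR 0.0705), and 47 of 16966 genes passed.

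Against CTRL, the differences were smaller and did not pass. With AngII the log2 fold change was -0.44 for Mbp (SE 0.122, FDR 0.0876) and -0.61 for Sox10 (SE 0.229, FDR 0.185). Of the 7 genes 0 passed with edgeR in this comparison, where 5.1% of all genes passed, 3 of the 7 (Mbp, Sox10 and Dbh) had an unadjusted p below 0.05, and DESeq2 and the likelihood ratio test each called 1 (Dbh). At AngII+3W it was 0.46 for Mbp (SE 0.121, FDR 0.174) and 0.74 for Sox10 (SE 0.219, FDR 0.223). Here 0 of 7 passed with edgeR, beside 0.285% of all genes, 2 had an unadjusted p below 0.05, and DESeq2 and the likelihood ratio test called 0. Both AngII libraries were the lowest of the 8 for 3 of the 7 genes (Mbp, Sox10 and Dbh), beside 9.13% of all genes tested, and both AngII+3W libraries the highest for 2 (Mbp and Sox10), beside 5.83%. The same 3 genes were below both CTRL libraries in AngII and above both in AngII+3W, beside 2.13% of all genes tested. The 2 comparisons with CTRL share the CTRL libraries, and the comparison of AngII+3W with AngII shares a group with each of them.

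**Figure D3:**
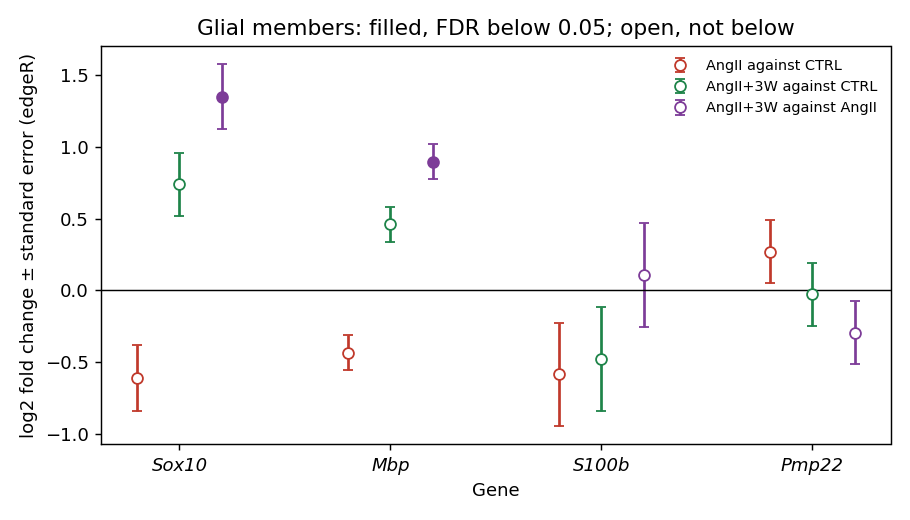
Log2 fold change (vertical axis, points) with its standard error (bars) for Sox10, Mbp, S100b and Pmp22 in the 3 comparisons that do not involve AngII+2W. Filled points passed the FDR of 0.05, which were Sox10 (1.35) and Mbp (0.90) in AngII+3W against AngII.

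Of the other myelin and Schwann cell genes, few passed the test. On the myelin list, 1 of the 15 tested genes passed in AngII against CTRL, where it fell, beside 5.1% of all genes, and 1 in AngII+3W against AngII, where it was higher, beside 1.61%. Of the 15 genes, 13 were higher by sign at AngII+3W than with AngII, and the median log2 fold change was 1.55, beside 0.04 over all genes. In AngII against CTRL, 11 of 15 were lower by sign with a median of -1.03, beside -0.01 over all genes, but the median was -0.15 without CTRL replicate 1, a fit in which 16 genes of the list were tested. Between AngII+3W and CTRL, 14 of 15 were higher with a median of 0.65 and 0 called (5 with an unadjusted p below 0.05, smallest FDR 0.200). Both AngII+3W libraries were the highest of the 8 for 10 of the 18 genes on the list, among them 7 of the 14 that pass the filter without AngII+3W, beside 3.81% of all genes in the table and 5.68% of those that pass without AngII+3W. Egr2, the transcription factor that drives myelination, had 38 to 88 counts with no order by group (log2 fold change in AngII against CTRL 0.13, SE 0.374, FDR 0.891).

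The Schwann cell list, with 19 of 20 genes tested, had 2 calls in AngII+3W against AngII, beside the same 1.61%: the cadherin Cdh19 (log2 fold change 1.71, SE 0.286, FDR 0.0413) and the axonal potassium channel Kcna1 (1.22, SE 0.210, FDR 0.0422). Both calls were lost in some of the fits that leave out 1 library, which differed in how many genes of any kind they called. The log2 fold change in these fits was 1.42 to 1.92 for Cdh19 and 0.94 to 1.51 for Kcna1. Erbb3, the neuregulin receptor of Schwann cells, did not pass in the same comparison (0.91, SE 0.229, FDR 0.0998). In AngII against CTRL, 3 genes of the list passed, beside 5.1% of all genes: Ncam1 fell by 2.00 on the log2 scale (SE 0.293, FDR 0.0157), and the matrix protein gene Matn2 rose by 0.90 (SE 0.166, FDR 0.0280) and Gpm6b by 1.22 (SE 0.222, FDR 0.0264). Ncam1, an adhesion molecule, is also made by muscle and neurons, and Matn2 and Gpm6b are made by other cells of the vessel wall. None passed between AngII+3W and CTRL (smallest FDR 0.0848, 11 with an unadjusted p below 0.05), with 16 of 19 higher by sign and a median of 0.45. Over the 8 libraries the Pearson r of log2 CPM was 0.95 for Mbp and Sox10, 0.88 for Mbp and Erbb3, 0.84 for Mbp and Cdh19, 0.80 for Sox10 and Erbb3, and 0.79 for Sox10 and Cdh19, while it was -0.44 for Mbp and Ngfr and 0.13 for Mbp and S100b.

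Mbp is also made by oligodendrocytes of the central nervous system, and 6 of their markers were counted. Olig2 had no count in any library, Mog had at most 4, Ermn at most 8 and Mobp at most 10, while Olig1 had 7 to 39 and Opalin 14 to 41. Together they summed to between 1.94 and 4.01 CPM, with 2.37 and 2.31 CPM in AngII+3W, and their part in the Mbp values was not tested. Muscle markers differed between the AngII+3W libraries, with a cardiac sum of 5261 and 320 CPM and a skeletal sum of 2459 and 9.94 CPM, whereas Mbp was at 55.6 and 57.3 CPM and Sox10 at 4.68 and 5.48 CPM in the same libraries. The part of muscle was not tested. The summed level of fibroblast markers was highest in AngII (7997 and 12941 CPM against 1137 to 4172 CPM elsewhere). That of macrophage markers was too (477 and 673 CPM against 136 to 270 CPM). Mbp and Sox10 were lowest in these libraries. Most of the fibroblast sum in AngII was Col1a1 (6639 and 11178 CPM). Of the 6 fibroblast markers, 4 were highest of the 8 in both AngII libraries, beside 11.9% of all genes tested, and Dcn and Pdgfra were not. The part of fibroblasts and macrophages in the lower values was not tested. Smooth muscle markers summed to 9472 and 7413 CPM in CTRL, 1720 and 2167 CPM in AngII and 1696 and 3256 CPM in AngII+3W, where Mbp and Sox10 were highest.

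**Figure D4:**
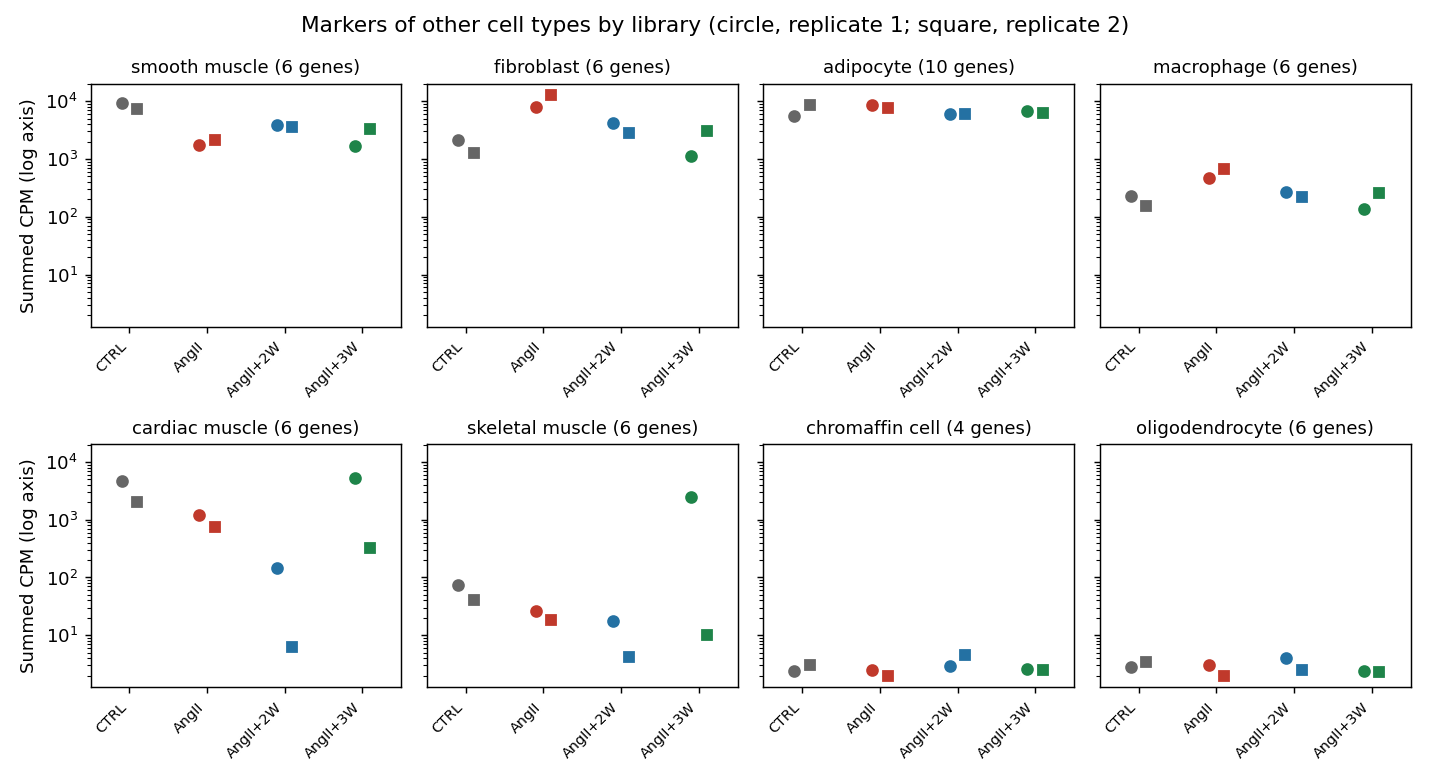
Summed CPM of marker genes of other cell types (vertical axes, log scale) by group (horizontal axes), with replicate 1 as circles and replicate 2 as squares. Cardiac markers range from 6.34 CPM in an AngII+2W library to 5261 CPM in an AngII+3W library, and chromaffin and oligodendrocyte markers stay between 1.94 and 4.62 CPM.

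S100b and Pmp22 followed neither pattern. S100b (ENSMUSG00000033208, chromosome 10, 76253853 to 76261159, forward strand) had 16.8 and 33.4 CPM in CTRL, 18.8 and 14.6 with AngII, 11.7 and 15.6 at AngII+2W and 22.4 and 13.6 at AngII+3W. Neighbouring groups in the order of their means overlapped, and CTRL replicate 2 stood above all other libraries. The log2 fold change was -0.59 in AngII (SE 0.360, FDR 0.425) and -0.48 in AngII+3W (SE 0.360, FDR 0.630) against CTRL, and 0.11 in AngII+3W against AngII (SE 0.362, FDR 0.906). Without CTRL replicate 2, the first pair of values was -0.02 and 0.08. The adipocyte hormone gene Adipoq was also highest in CTRL replicate 2 (722 CPM against 543 to 653 CPM), and its Pearson r with S100b over the 8 libraries was 0.79. The same r was 0.44 for Plin1 and 0.41 for Lep, also on the adipocyte list, and -0.90 for the fibroblast gene Pdgfra. The part of fat in the S100b values was not tested. The span of the gene Dip2a, on the other strand, covers at least part of an exon of S100b, and the exons of Dip2a were not compared. Whether the counting used strand is not given in the sources used here.

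Pmp22 (ENSMUSG00000018217, chromosome 11, 63128982 to 63159547, forward strand), a membrane protein of compact myelin that fibroblasts and other cells also express, varied least of the 7 genes. Its CPM values were 86.0 and 57.6 in CTRL, 85.7 and 87.3 with AngII, 78.9 and 60.7 at AngII+2W and 62.7 and 78.2 at AngII+3W, a 1.51-fold range over the 8 libraries, beside a median of 1.73-fold over all genes. The range was 2.07-fold for Mbp, 2.99-fold for Sox10, 2.85-fold for S100b and 5.97-fold for Ngfr. The log2 fold change of Pmp22 was 0.27 in AngII (SE 0.219, FDR 0.565) and -0.03 in AngII+3W (SE 0.219, FDR 0.973) against CTRL, and -0.30 in AngII+3W against AngII (SE 0.220, FDR 0.518). Without CTRL replicate 2 the value in AngII against CTRL was 0.00, and without CTRL replicate 1 it was 0.59. Over the 8 libraries its Pearson r was -0.49 with Mbp, 0.75 with the fibroblast gene Pdgfra and 0.71 with Col1a1.

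Growth factors of nerves and their receptors were counted on a list of 18 genes, 16 of which were tested. In AngII against CTRL 3 of them passed, beside 5.1% of all genes: the GDNF family receptor Gfra1 rose (log2 fold change 1.81, SE 0.309, FDR 0.0222), and the ligand neurturin (Nrtn, -1.14, SE 0.216, FDR 0.0302) and the neurotrophin receptor Ntrk3 (-1.20, SE 0.186, FDR 0.0172) fell. Gfra1 and Ntrk3 also passed in AngII+3W against AngII, with the opposite sign (-1.80, FDR 0.0427, and 1.25, FDR 0.0289). The p75 ligands Bdnf and Ntf3 did not pass in AngII against CTRL, with Bdnf at -1.37 (SE 0.447, FDR 0.134) and Ntf3 at -1.12 (SE 0.293, FDR 0.0747) on the log2 scale. Sort1, the coreceptor of p75 for unprocessed neurotrophins, was between 282 and 359 CPM in all 8 libraries, and Nrg1, the ligand of Erbb3, between 1.03 and 3.07 CPM. In AngII+2W against CTRL 0 of the 16 passed (smallest FDR 0.174, 2 with an unadjusted p below 0.05), and in AngII+3W against CTRL 0 (smallest FDR 0.129, 3 with an unadjusted p below 0.05).

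On the side of the target cells, 2 of 9 adrenergic receptor genes passed in AngII against CTRL, beside 5.1% of all genes. Adra1d, the receptor through which noradrenaline contracts the mouse aorta, fell by 2.08 on the log2 scale (SE 0.215, FDR 0.00663). Adra1d was at 26.8 and 36.5 CPM in CTRL, 7.13 and 7.82 with AngII, 13.8 and 18.7 at AngII+2W and 12.5 and 13.4 at AngII+3W, below CTRL in all 6 libraries of the AngII groups. The summed smooth muscle markers, given above, were lower in the same comparison, and their part in the Adra1d values was not tested. On the list of sensory nerve genes (5 of 8 tested), Trpv1 rose by 2.08 (SE 0.354, FDR 0.0221) and Piezo2 by 2.45 (SE 0.353, FDR 0.0152) in AngII against CTRL, both ion channels that other cells of the vessel also express, whereas the sensory neuropeptide gene Calca had 2 to 20 counts and was not tested. Each of the 13 calls of list genes in AngII against CTRL was lost in at least 1 of the fits that leave out a library. Such a fit leaves 1 library in a group, and these fits differed in how many genes of any kind they called. Nothing about these genes is therefore read from the losses. The log2 fold change of Adra1d lay between -2.29 and -1.85 in them. No call changed its sign.

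The genes whose log2 CPM was most like that of each of the 7 over the 8 libraries were found among all other tested genes. For Dbh they were the sodium channel of sensory and sympathetic neurons Scn9a (Pearson r 0.985), Unc80 (0.981) and Mxi1 (0.980), and for Th they were led by Rnf112 (0.974) and Thap4 (0.971). For Ngfr they were Wdr91 (0.963), Nrip3 (0.953) and Celsr3 (0.953), for Mbp Megf11 (0.980), Plekhb1 (0.976) and Akap9 (0.972), and for Sox10 Akap8 (0.968), Patz1 (0.967) and Fam174a (0.963). For S100b they were Trim67 (0.965), Rhot2 (0.963) and Cpt1b (0.953), and for Pmp22 Gm5837 (0.980), Nxnl2 (0.974) and Rbm43 (0.973). Between 18 and 78 genes passed an r of 0.9 with a given member, and of the genes named here Scn9a is on a list used above.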

How the data were processed

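RNA-sequencing of whole aorta was analysed from 8 libraries, 2 per group, named by their labels. The deposited table holds the authors' expected counts per gene, estimated with Salmon on GRCm38.p6, summed to genes and without normalization. The values are whole numbers. The submitters' processing notes also name FastQC, MultiQC and edgeR. The labels number the libraries 1 and 2 in each group and name no sequencing batch, and the numbers mark different mice.

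The 7 genes and all gene lists were chosen with earlier results of these data known. The tests were those of edgeR 4.0.16 under R 4.3.3 (filterByExpr, TMM, quasi-likelihood F test of the older series, all 8 libraries in 1 model with 4 residual degrees of freedom) in 6 comparisons, with Benjamini-Hochberg adjustment over 17182 genes. The script was tested on simulated data in which 200 genes were changed. SE is the log2 fold change divided by the square root of F. No test is given for Ngfr, and for the 7 genes in comparisons with AngII+2W only the number of calls is given, as a description. Ratios of low counts have exact conditional 95% intervals that cover counting error only. Correlations used log2 CPM with a prior count of 2. Named genes are the 7, up to 4 called genes per list, 18 genes fixed by name and, for each member, the 3 genes of highest r, and some of these are not reported here. Syt1, Fabp7, Olig2, Mog and the markers named singly were chosen after their values were seen. Marker lists covered adipocytes, melanocytes, oligodendrocytes, chromaffin cells, smooth muscle, endothelium, fibroblasts, macrophages, T cells, cardiac and skeletal muscle. No other annotated transcript matched a member at 90% identity over 200 bases (BLAST 2.17.0). DESeq2 1.42.0 and limma 3.58.1 were used in alternatives.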

Additional observations from a re-analysis of the deposited data

Results flagged for a closer look

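Of the 7 genes, 3 lay on opposite sides of CTRL in AngII and AngII+3W, in both libraries of each group, beside 2.13% of all genes tested with this pattern, lower in AngII and higher in AngII+3W. These differences from CTRL did not pass the test singly, and the comparison of AngII+3W with AngII is the test of the difference between them. Mbp was below both CTRL libraries in AngII and above both in AngII+3W, and its log2 fold change between these groups was 0.90 (FDR 0.0251). The same held for Sox10, with a log2 fold change of 1.35 (FDR 0.0413). For Dbh the AngII libraries had 0 counts, so that AngII+3W was at least 3.18-fold higher, and the difference did not pass the test (FDR 0.137). This rests on 10 counts in CTRL and 18 in AngII+3W, and Dbh passed the filter on low counts only through AngII+2W.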

How the results depend on the processing

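The number of the 7 genes called changed with the fit, and so did that of all genes called, also with 1 library left out. In AngII against CTRL it was 1 with DESeq2 and with the likelihood ratio test, and 0 in each other fit. DESeq2 called 1588 and the likelihood ratio test 1711 of all 17182 genes, beside 877 in the main fit. In AngII+3W against CTRL it was 0 throughout, where DESeq2 called 585 genes in all and the likelihood ratio test 556. In AngII+2W against CTRL it was 1 with every gene of at least 1 count kept (5 genes in all). With DESeq2 and with the likelihood ratio test it was 2 (373 and 420 genes in all). In AngII+2W against AngII it was 2 with every gene kept and with DESeq2 (242 and 685 genes in all). It was also 2 with the likelihood ratio test and with only the 2 groups fitted (766 and 884 in all). It was 0 with the filter of 10 counts in every library, with limma-voom and with the replicate block (25, 15 and 26 in all). In AngII+3W against AngII it was 3 with DESeq2 and with the likelihood ratio test (968 and 1068 genes in all). It was 1 with library totals in place of TMM (179 in all). With only the 2 groups fitted it was 0, but that fit called 0 of 16579 genes. Without the AngII+2W libraries, a fit added after the data were seen, it was 0 (47 in all). In AngII+3W against AngII+2W it was 1 with every gene kept (11 genes in all). It was 3 with DESeq2 and with the likelihood ratio test (221 and 273 in all). A group left with 1 library is assumed to vary like the others, and fits of 2 groups have fewer residual degrees of freedom. For the other changes the cause was not tested. Each of the 19 calls of other list genes was lost in at least 1 of the 8 fits that leave out 1 library, and all 19 kept their sign in them. Those fits differed in how many genes of any kind they called, so nothing about these genes is read from the losses. Th and Dbh are not in the fit filtered at 10 counts. The replicate numbers mark no shared batch, and the differences between replicates 2 and 1 had correlations of -0.04 to 0.25 between groups, so the pairing was not used. The replicate block changed the number of calls among the 7 genes only in AngII+2W against AngII. Counts of Th and Dbh outside AngII+2W, at most 11, limit what can be seen of them at this depth.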

Other observations

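The myelinating nerve bundle is enclosed by endoneurial and perineurial cells, and of 8 tested genes of these cells 0 passed the FDR with edgeR in any comparison with CTRL, with a summed level of 60.7 to 79.2 CPM (unadjusted p below 0.05: 1 gene with AngII, 0 at AngII+2W, 3 at AngII+3W). Melanocytes, which like Schwann cells come from the neural crest and express Sox10, had marker sums of 56.3 and 57.3 CPM with AngII, 78.7 and 86.3 CPM at AngII+2W, and 66.6 to 74.4 CPM for CTRL and AngII+3W, the lowest values in the group where Sox10 was lowest. Kit and Mitf made up most of these sums, and Kit was at 46.8 and 53.5 CPM in AngII+2W. Dct was at 10.6 and 9.08 CPM in CTRL, 5.24 and 5.69 CPM with AngII and 5.93 and 7.52 CPM at AngII+2W. The part of melanocytes in the Sox10 values was not tested. Endothelial markers summed to between 758 and 1026 CPM and T cell markers to between 12.1 and 17.4 CPM. Adipocyte markers summed to between 5555 and 8614 CPM. The brown fat gene Ucp1, looked at after its values were seen, was at 409 and 455 CPM in AngII+2W and between 680 and 1879 CPM in the other libraries. Cidea, on the same list, was not low there, with 669 and 749 CPM in AngII+2W and 430 to 769 CPM elsewhere. Of the 10 adipocyte genes, 2 (Cidec and Ucp1) were the lowest of the 8 in both AngII+2W libraries, beside 4.03% of all genes tested. The part of brown fat was not tested.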
